A study of Homo sapiens with 11 samples.

Results

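The comparison described here was the early response of Caki-1-SR cells to the optimized drug combination (ODC), read as RNA from 3 ODC libraries and 2 control (CTRL) libraries taken at 2 h, 5 of the 11 libraries of the series. Caki-1 is a line of human clear cell renal cell carcinoma (ccRCC) that was established from a skin metastasis, and Caki-1-SR is a subline resistant to sunitinib and kept in 1 µM of that tyrosine kinase inhibitor. The ODC libraries came from cells given 4 drugs together, parthenolide at 5 µM, Rapta-C at 2 µM, and erlotinib and metformin at 1 µM each, so that no drug was seen alone. The CTRL libraries carry no drug in their labels beyond the sunitinib of the culture, and the study calls its control both untreated and sham-treated with solvent. All libraries came from a single cell line, and nothing in the labels ties libraries to separate cultures, so the p-values below measure the spread between libraries only. The 2 h and 24 h libraries carry different months in their labels, which do not say what was done then. Time and the labelled month cannot be told apart. The members were every gene that passed a filter on low counts, 13332 of 26485 symbols. The question put to them was whether any gene differed between ODC and CTRL after 2 h, and whether a difference held against each of the 2 CTRL libraries.

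Erlotinib and parthenolide act on pathways with fast transcriptional targets. Erlotinib blocks the kinase of the epidermal growth factor receptor (EGFR), which signals through ERK to the immediate early genes and to the feedback inhibitors of the DUSP and SPRY families. Parthenolide is a thiol-reactive plant lactone that inhibits NF-kB signalling; reactive compounds of this kind release NRF2 from KEAP1, which induces antioxidant genes such as HMOX1, and unfold proteins, which releases HSF1 to induce the heat shock genes. Metformin lowers mitochondrial respiration and activates AMPK, and Rapta-C is a ruthenium-arene compound.

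The 5 libraries held between 25782895 and 31118349 counts, and 3 counts, taken as the floor of detection, corresponded to 0.0953 to 0.116 CPM, the unit of level used here (counts relative to the library total after TMM scaling). Levels are given below in replicate order, CTRL replicates 1 and 2 and then ODC replicates 1, 2 and 3. Any 2 libraries of the same group differed by more than sampling noise, with a chi-square of 22.9 to 34.3 per gene, and each was counted as 1 sample. The kidney lineage factor PAX8 was read with 15135 to 19542 counts and the mesenchymal filament VIM with 89436 to 114779 counts per library. The hypoxia marker CA9, often high in ccRCC, had 1 count in CTRL replicate 1 and 0 in the other 4 libraries, under the floor in each.

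CTRL replicate 1 stood apart from the other 4 libraries. It held 16840 genes with at least 1 count, against 15761 to 15973 in the others. Its correlation with the other libraries was 0.989 to 0.992 across genes on the log2 scale, and the other pairs lay between 0.993 and 0.995. A set of 19 genes had at least 30 counts in CTRL replicate 1 and at most 3 in each other library, and no other library had a single gene of that kind. These genes included COL5A1 and DCN, which fibroblasts express, KRT19, which epithelia express, and HLA-DRA, an antigen-presenting molecule of immune cells. Of the 7 fibroblast markers listed, COL1A2 had 971 and 2 counts in CTRL and 0, 11 and 6 in ODC, and COL3A1 had 1081 and 0 counts in CTRL and 3, 6 and 3 in ODC. Summed over the 7 markers the level was 327 and 137 CPM in CTRL and 159 to 169 CPM in ODC, most of it COL1A1. The endothelial markers PECAM1, CDH5, KDR, VWF and CLDN5 had 1 to 13 counts in CTRL replicate 1 and 0 to 4 in the other libraries, and TEK had 0 counts there and 4 to 6 elsewhere. Among the 6 leukocyte markers PTPRC and CD3E had 3 to 4 counts there and 0 to 7 elsewhere. Summed over the 6, the counts were 421 and 395 in CTRL and 530, 426 and 431 in ODC, so most came from other members. CTRL replicate 1 was the highest library in 0 of the 3 leukocyte markers tested. The source of the counts found in CTRL replicate 1 was not tested.

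A second departure concerned the libraries numbered 2. In several NRF2 targets and ERK-dependent genes, CTRL replicate 2 lay with ODC replicate 1, and ODC replicate 2 lay with CTRL replicate 1. HMOX1, the haem-degrading enzyme that NRF2 induces, read 21.9 and 229 CPM in CTRL and 329, 17.9 and 104 CPM in ODC. DUSP6, the ERK phosphatase that ERK itself induces, went the other way, with 18.1 and 1.38 CPM in CTRL and 2.38, 15.8 and 2.42 CPM in ODC. For both genes, CTRL replicate 2 and ODC replicates 1 and 3 were on 1 side, and CTRL replicate 1 and ODC replicate 2 on the other. The groups therefore overlapped, and the spread within a group was wider than the difference between groups. Across all tested genes, CTRL replicate 2 and ODC replicate 2 had a chi-square of 13.2 per gene, the lowest of any pair, and a correlation of 0.995. ODC replicate 2 had 30.7 and 0.992 with CTRL replicate 1, and CTRL replicate 2 had 22.7 and 0.995 with ODC replicate 1. Whether these libraries carry the right labels was not tested, and all libraries were kept under their deposited labels. Results that rest on them are given with and without them, including a fit without both libraries numbered 2. That fit was chosen once the values were known, because HMOX1, DUSP6 and genes like them read this way in those libraries. It leaves CTRL replicate 1 as the lone control, with the spread taken from 2 ODC libraries, so its values are given as a description without a test. Leaving out either CTRL library alone likewise left 1 control, so p-values and counts from those fits are a description too.

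**Figure D1:**
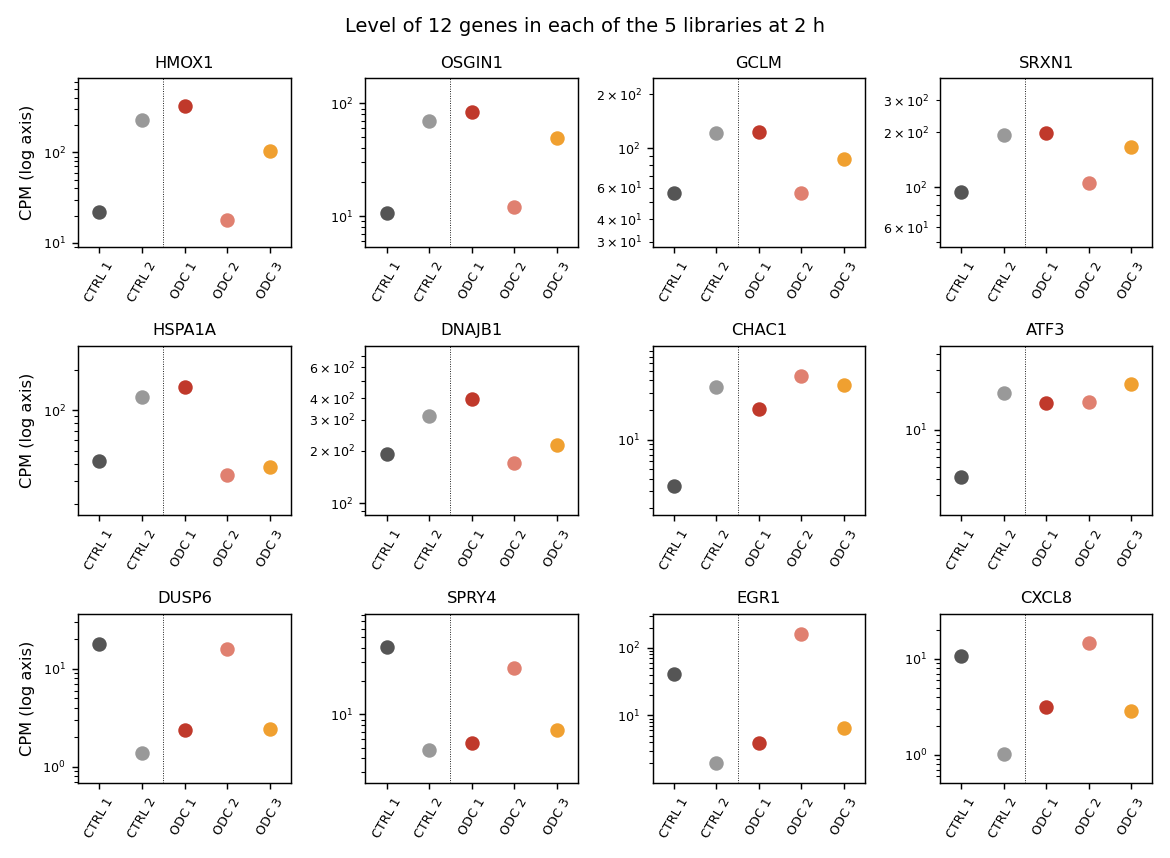
Level of 12 genes in each library at 2 h, in CPM on a log axis whose range differs between panels; each point is 1 library, grey for CTRL and red to orange for ODC, and the dotted line separates the groups. HMOX1, OSGIN1, GCLM, SRXN1, HSPA1A and DNAJB1 were low in CTRL 1 and ODC 2, DUSP6, SPRY4, EGR1 and CXCL8 were high in these libraries, and CHAC1 and ATF3 were low in CTRL 1 alone.

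No gene was called at 2 h. With edgeR's quasi-likelihood test and Benjamini-Hochberg adjustment over the 13332 genes, 0 genes (0% of those tested) had an adjusted p under 0.05 with a fold change of at least 2, and the smallest adjusted p was 0.99997. The likelihood ratio test of the same tool called 5 genes, all of them small structural RNAs lower in ODC (RMRP, RN7SL1, RN7SL2, RNU2-2P and RPPH1), and DESeq2 called RPPH1 alone. At an unadjusted p under 0.05 with any fold, 196 genes (1.47%) were higher and 116 (0.87%) lower in ODC, 312 in all, fewer than the 5% that an unadjusted threshold of 0.05 allows. Of these, 41 genes (0.308%) also passed a fold change of 2, 13 higher and 28 lower, and 25 of the 41 had a mean level under 1 CPM in both groups. Some of the 41 reached the filter's minimum count of 10 only in the group where they were higher. HIST1H2BO had 11 and 11 counts in CTRL and 5, 4 and 4 in ODC, and TICAM2 had 4 and 2 in CTRL and 12, 11 and 18 in ODC. The 13 and 28 are therefore a description. With at least 10 counts required in every library, 13 genes passed, 3 higher and 10 lower. All 3 ODC libraries lay above both CTRL libraries in 1052 genes (7.89%) and below both in 989 genes (7.42%). The middle 90% of the log2 fold changes lay between -0.35 and 0.33, with a median of -0.006.

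**Figure D2:**
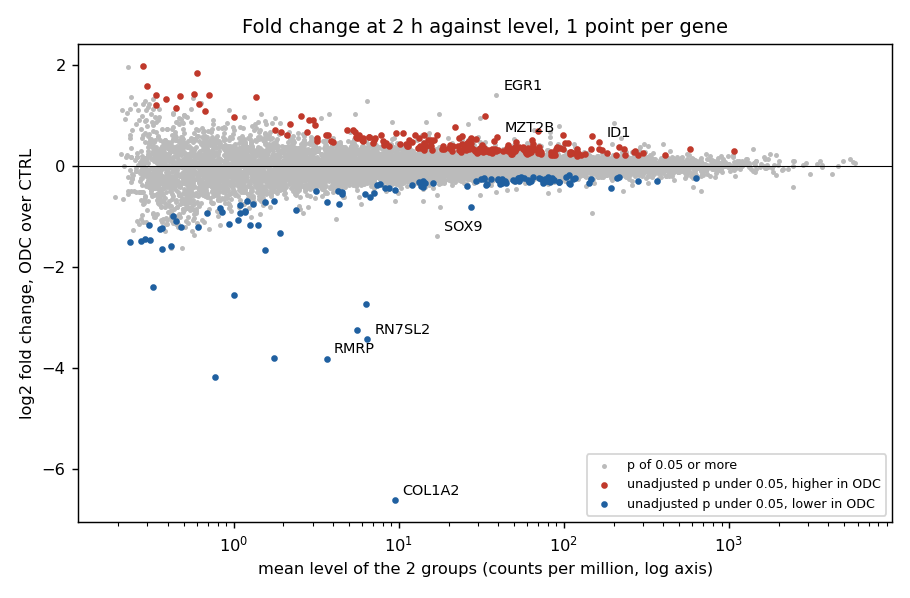
Log2 fold change of ODC over CTRL at 2 h against the mean level of the groups in CPM (log axis), 1 point per gene; red and blue mark the 196 higher and 116 lower genes with an unadjusted p under 0.05. COL1A2 and the small structural RNAs such as RMRP and RN7SL2 made up the lowest points, and EGR1 and SOX9 lay off the cloud without passing the test.

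Against each CTRL library on its own, the mean of the 3 ODC libraries gave different gene sets. It differed by at least 2-fold from CTRL replicate 1 in 359 genes, 131 higher and 228 lower, and from CTRL replicate 2 in 251 genes, 209 higher and 42 lower. A difference of that size in the same direction against both held in 30 genes, 11 higher and 19 lower, which was 8.36% of the first set and 11.95% of the second. In 36 genes the mean of ODC was at least 2-fold away from both libraries in opposite directions, between them. Of the 41 genes past the unadjusted threshold and fold, 10 kept p under 0.05 without CTRL replicate 1, 22 without CTRL replicate 2, and 5 in both of these fits. Among all 312 genes with an unadjusted p under 0.05, 38 stayed under it in both fits. Without CTRL replicate 1, 64 genes passed the unadjusted threshold and fold and 0 the adjusted one. Without CTRL replicate 2 these were 347 and 40 genes, and 33 of the 40 were lower in ODC, among them COL3A1, COL5A1, IGFBP2 and DCN, of which the other libraries held at most 6 counts.

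**Figure D3:**
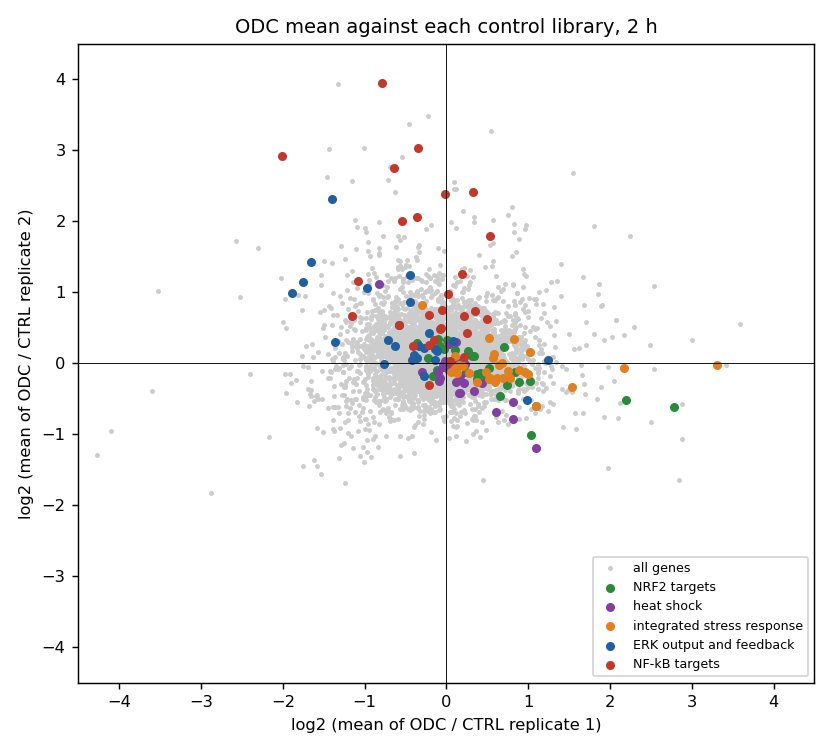
Log2 ratio of the mean of the 3 ODC libraries to CTRL replicate 1 (x axis) and to CTRL replicate 2 (y axis), 1 point per gene, with members of 5 gene lists coloured; 5 genes lie outside the axes. NRF2 targets and genes of the integrated stress response lay to the right of 0 on the x axis and near or under 0 on the y axis, and NF-kB targets and ERK feedback genes were mostly above 0 on the y axis.

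The antioxidant genes driven by NRF2 were tested in 34 of 37 listed members. Against both CTRL libraries, 28 of the 34 had a higher and 6 a lower estimate, with a median log2 fold change of 0.10 (all genes -0.006), 1 had an unadjusted p under 0.05 and 0 were called. All 3 ODC libraries lay above both CTRL libraries in 0 of the 34, against 7.89% of all genes. Measured against CTRL replicate 1 the median was 0.29, with 27 of 34 higher, and against CTRL replicate 2 it was -0.06, with 15 of 34 higher. ODC replicate 1 was the highest library in 22 of the 34 genes, and CTRL replicate 1 the lowest in 20 and ODC replicate 2 in 7.

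HMOX1 (chr22:35380361-35394214, hg38) varied most among them, and its log2 fold change was 0.26 ± 1.11 (SE; unadjusted p = 0.823). OSGIN1, a stress-inducible growth inhibitor at chr16:83931311-83966332, read 10.6 and 69.4 CPM in CTRL and 83.3, 12.1 and 49.7 CPM in ODC. SRXN1, which repairs peroxiredoxins, read 93.4 and 192 CPM in CTRL and 198, 105 and 167 CPM in ODC. As for HMOX1, ODC replicate 1 was highest in both genes, followed by CTRL replicate 2 and ODC replicate 3, and the other libraries were low. TRIM16L read 25.5 and 61.4 CPM in CTRL and 74.4, 27.4 and 52.9 CPM in ODC, although reads of this gene and its near-identical copy TRIM16 may be split between them. GCLM, the modifier subunit of the enzyme that starts glutathione synthesis, read 55.9 and 122 CPM in CTRL and 122, 55.9 and 86.9 CPM in ODC, so that its log2 fold change was -0.01 ± 0.37 (SE). SLC7A11, the cystine importer that feeds the same synthesis, read 39.4 and 127 CPM in CTRL and 101, 63.1 and 87.5 CPM in ODC.

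Other members of the list had a smaller range. EPHX1, a microsomal epoxide hydrolase, read 74.3 and 104 CPM in CTRL and 134, 96.2 and 134 CPM in ODC, a log2 fold change of 0.45 ± 0.19 (SE; unadjusted p = 0.0431), the smallest p of the list. It was 0.23 without CTRL replicate 1 and 0.72 without CTRL replicate 2, and its unadjusted p = 0.0537 with GC content adjusted for. FTH1, the heavy chain of ferritin, read 1642 and 1927 CPM in CTRL and 2209.8, 1869 and 2163 CPM in ODC (unadjusted p = 0.0802), and its many pseudogenes make the split of its reads uncertain. Both genes lay lowest in CTRL replicate 1, and both overlapped between groups. NFE2L2, which encodes NRF2, read 99.7 and 141 CPM in CTRL and 146, 150.4 and 138 CPM in ODC (unadjusted p = 0.102), and its repressor KEAP1 read 114 and 155 CPM in CTRL and 168, 130.4 and 144 CPM in ODC (unadjusted p = 0.418).

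With both libraries numbered 2 left out, the log2 fold change of HMOX1 was 3.32, that of OSGIN1 2.67 and that of GCLM 0.91, and 30 of the 34 list members had a higher estimate. These libraries were left out for how HMOX1 and genes like it read in them, so the values are a description and no support for an increase. Leaving out CTRL replicate 2 alone gave HMOX1 2.79 and OSGIN1 2.21, and leaving out CTRL replicate 1 gave -0.61 and -0.52, so that the sign of both depended on which control library was used.

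The heat shock list split the libraries in a similar way, though ODC replicate 3 sat elsewhere. Of 30 members tested, 10 had a higher and 20 a lower estimate, with a median log2 fold change of -0.03 and 0 under an unadjusted p of 0.05. HSPA1A, the inducible HSP70, read 41.7 and 126 CPM in CTRL and 149, 33.2 and 37.6 CPM in ODC. HSPA1B, its neighbouring copy, read 20.2 and 98.01 CPM in CTRL and 91.7, 18.5 and 19.1 CPM in ODC; the transcripts are nearly identical, so the split of reads between them is uncertain. DNAJB1, the HSP40 that works with HSP70, read 192 and 316 CPM in CTRL and 397, 171 and 215 CPM in ODC. For all 3, CTRL replicate 2 and ODC replicate 1 were high and the other 3 libraries low, so ODC replicate 3 was low here although it was raised for HMOX1 and OSGIN1. DNAJB4, another HSP40, showed the same split at 10.2 and 25.2 CPM in CTRL and 27.2, 9.16 and 10.5 CPM in ODC. HSPE1, the mitochondrial chaperonin partner, read 70.1 and 61.9 CPM in CTRL and 58.6, 59.05 and 53.01 CPM in ODC, a log2 fold change of -0.21 ± 0.10 (SE; unadjusted p = 0.0720), with all 3 ODC libraries under both CTRL libraries. HSF1 itself read 80.1 and 86.1 CPM in CTRL and 83.3, 91.7 and 87.2 CPM in ODC (unadjusted p = 0.443).

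The promoters of genes whose levels moved together across these libraries are shown so that their shared elements can be seen. They are the RefSeq windows of GRCh38.p14, 250 bases before to 50 bases after the start of the gene, written 5′ to 3′ on the strand of the gene, with the motif matches in capitals. HSPA1A is at chr6:31815293-31815592 on the + strand, HSPA1B at chr6:31827488-31827787 on the + strand and a start of DNAJB1 at chr19:14518348-14518647 on the - strand, and in them the capitals mark the heat shock element GAANNTTC. The table holds 3 starts of DNAJB1, and the one shown has the most matches, 2, while the others have 0 and 1. GCLM is at chr1:93909381-93909680 on the - strand, and its capitals mark the antioxidant response element TGACNNNGC.
HSPA1A: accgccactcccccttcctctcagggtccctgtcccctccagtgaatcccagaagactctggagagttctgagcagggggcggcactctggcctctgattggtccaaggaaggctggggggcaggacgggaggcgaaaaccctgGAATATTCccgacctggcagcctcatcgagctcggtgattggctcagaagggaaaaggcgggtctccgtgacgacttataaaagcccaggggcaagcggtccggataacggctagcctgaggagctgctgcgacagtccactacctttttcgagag
HSPA1B: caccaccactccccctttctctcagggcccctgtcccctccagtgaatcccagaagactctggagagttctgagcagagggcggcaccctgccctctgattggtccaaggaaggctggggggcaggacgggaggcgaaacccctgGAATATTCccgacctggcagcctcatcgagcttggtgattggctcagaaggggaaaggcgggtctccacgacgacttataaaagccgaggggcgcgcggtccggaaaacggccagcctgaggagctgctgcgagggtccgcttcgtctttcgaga
DNAJB1: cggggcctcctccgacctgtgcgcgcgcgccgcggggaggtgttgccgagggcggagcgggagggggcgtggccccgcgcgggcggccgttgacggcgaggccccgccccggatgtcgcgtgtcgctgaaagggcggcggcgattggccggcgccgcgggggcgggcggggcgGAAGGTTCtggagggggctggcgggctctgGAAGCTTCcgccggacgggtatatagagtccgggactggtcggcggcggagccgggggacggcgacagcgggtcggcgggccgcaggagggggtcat
GCLM: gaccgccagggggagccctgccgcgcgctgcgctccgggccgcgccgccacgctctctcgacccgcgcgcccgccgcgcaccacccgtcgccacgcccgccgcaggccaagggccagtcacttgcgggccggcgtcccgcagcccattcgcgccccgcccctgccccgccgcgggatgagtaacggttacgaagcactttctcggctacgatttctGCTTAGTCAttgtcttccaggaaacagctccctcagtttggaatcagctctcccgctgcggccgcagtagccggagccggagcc

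Searched on both strands, GAANNTTC occurred in 16 of the 29 heat shock genes that had a promoter in the table (55.2%), and in 8.21% of 27305 genes with a promoter and 6.597% of the tested ones. TGACNNNGC occurred in 8 of 26 NRF2 targets (30.8%), in 16.1% of all and in 19.6% of the tested genes with a promoter, and its share was 33.3% in the integrated stress response list, 28% in the immediate early genes and 27.6% in the heat shock list. Matches to TGACTCA, the AP-1 site, occurred in 1 of 25 immediate early genes (4%, all genes 6.05%), and to TGACGTCA, the cAMP response element, in 3 of 25 (12%, all genes 2.25%). A match is a description of the letters in this window and not evidence of a bound factor.

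The ERK output and feedback genes were the mirror image of the antioxidant genes across libraries. Of 26 tested, 9 had a higher and 17 a lower estimate (median -0.14), and 0 had an unadjusted p under 0.05. CTRL replicate 1 was the highest library in 12 of them, ODC replicate 2 in 9 and ODC replicate 3 in 5. The median deviation from the mean of the 5 libraries, on the log2 scale, was 0.46 and -0.27 in CTRL and -0.41, 0.49 and -0.08 in ODC. SPRY4, an inhibitor of receptor tyrosine kinase signalling at chr5:142310427-142326455, read 40.7 and 4.80 CPM in CTRL and 5.46, 26.2 and 7.18 CPM in ODC. Its relative SPRY1 read 9.91 and 1.34 CPM in CTRL and 1.11, 5.73 and 1.17 CPM in ODC, and SPRY2 read 36.6 and 8.96 CPM in CTRL and 11.2, 33.8 and 11.3 CPM in ODC. PHLDA1, which restrains signalling by EGFR family receptors, read 340.0 and 45.4 CPM in CTRL and 57.7, 169 and 76.5 CPM in ODC. ODC replicate 3 was low for these genes, as were CTRL replicate 2 and ODC replicate 1. ETV4, a transcription factor downstream of ERK, varied less and read 8.09 and 7.55 CPM in CTRL and 7.12, 6.83 and 6.11 CPM in ODC, with all 3 ODC libraries under both CTRL libraries by -0.22 ± 0.16 (log2, SE; unadjusted p = 0.208).

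Among the immediate early genes, 19 of 30 tested had a higher and 11 a lower estimate (median 0.06). EGR1, a zinc finger factor induced within minutes of mitogens, read 40.8 and 2.01 CPM in CTRL and 3.91, 158 and 6.63 CPM in ODC. Its group means were set by ODC replicate 2, and its log2 fold change of 1.40 ± 1.57 (SE; unadjusted p = 0.397) became -2.02 without that library. FOS read 5.38 and 0.318 CPM in CTRL and 1.08, 3.66 and 1.14 CPM in ODC, JUN read 67.5 and 19.2 CPM in CTRL and 33.3, 73.5 and 28.4 CPM in ODC and JUNB read 32.04 and 10.2 CPM in CTRL and 9.66, 84.5 and 27.6 CPM in ODC, again highest in CTRL replicate 1 and ODC replicate 2. JUND, an AP-1 subunit with a steadier level, read 17.6 and 20.6 CPM in CTRL and 27.3, 24.3 and 35.3 CPM in ODC, with a log2 fold change of 0.60 ± 0.17 (SE; unadjusted p = 0.00905). IER5L read 4.37 and 5.50 CPM in CTRL and 7.56, 6.41 and 7.01 CPM in ODC (unadjusted p = 0.0301). In the list 3 of the 30 lay above both CTRL libraries and 1 below both, against 7.89% and 7.42% of all genes. JUND and IER5L were the members with an unadjusted p under 0.05, as were 1.47% of all genes in the higher direction, and both were higher in all 3 ODC libraries than in both CTRL libraries. Without CTRL replicate 1 neither kept it (unadjusted p = 0.0530 for JUND and 0.168 for IER5L).

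With both libraries numbered 2 left out, 24 of the 26 ERK output and feedback genes and 25 of the 30 immediate early genes had a lower estimate, with DUSP6 at a log2 fold change of -2.90, SPRY4 at -2.67, PHLDA1 at -2.33 and EGR1 at -2.94. Without CTRL replicate 1, the estimates of DUSP6, SPRY4 and PHLDA1 were 2.32, 1.43 and 1.15, the opposite sign. The lower estimates rest on CTRL replicate 1 as the only control, which stood apart in the ways given above. That fit left out libraries for how DUSP6 and genes like it read in them, so the lower estimates are a description.

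Receptors, ligands and adaptors of the EGFR family lie upstream of these genes. EGFR, the target of erlotinib, read 180.2 and 225 CPM in CTRL and 160.3, 204 and 207 CPM in ODC (unadjusted p = 0.534), and ERBB2 read 43.7 and 47.2 CPM in CTRL and 45.8, 50.3 and 50.2 CPM in ODC (unadjusted p = 0.353). Of 18 members of the EGFR family list tested, 3 had a higher and 15 a lower estimate, with a median of -0.13. CBL, the ubiquitin ligase that marks active EGFR for degradation, read 82.03 and 102 CPM in CTRL and 71.2, 74.2 and 75.6 CPM in ODC, a log2 fold change of -0.32 ± 0.11 (SE; unadjusted p = 0.0194), with all 3 ODC libraries under both CTRL libraries. Without CTRL replicate 2 it was -0.14. ERBB3 read 0.774 and 0.353 CPM in CTRL and 0.222, 0.259 and 0.0345 CPM in ODC (unadjusted p = 0.0429), levels that rest on 1 to 20 counts. This gene reached the filter's minimum count of 10 in the CTRL libraries only, so its lower level is a description. EREG, the abundant ligand epiregulin, read 1127 and 467 CPM in CTRL and 499, 566 and 623 CPM in ODC and was highest in CTRL replicate 1.

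NF-kB targets and components differed in how they spread. Of 28 targets tested, 22 had a higher and 6 a lower estimate (median 0.21), and 0 had an unadjusted p under 0.05. In 0 of them did the 3 ODC libraries lie on 1 side of both CTRL libraries. Over all genes 7.89% lay above both and 7.42% below both. ODC replicate 2 was the highest library in 14 and CTRL replicate 2 the lowest in 16. IL6 read 18.7 and 4.37 CPM in CTRL and 5.11, 58.2 and 6.87 CPM in ODC, the chemokine CXCL8 read 10.8 and 1.02 CPM in CTRL and 3.18, 14.6 and 2.87 CPM in ODC, CXCL1 read 73.7 and 12.6 CPM in CTRL and 15.8, 114 and 21.6 CPM in ODC and the growth factor CSF2 read 15.1 and 0.565 CPM in CTRL and 0.985, 23.7 and 1.52 CPM in ODC. These 4 cytokine genes were high in CTRL replicate 1 and ODC replicate 2 and low in the other 3 libraries. The mean of ODC exceeded CTRL replicate 2 in 27 of the 28 targets and CTRL replicate 1 in 10. The median of the list was -0.23 without ODC replicate 2, 0.71 without CTRL replicate 1, -0.10 without CTRL replicate 2 and -0.46 without both libraries numbered 2, so its direction depended on the libraries used.

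Among 29 components of the pathway, RELB, a subunit of the noncanonical arm, read 22.98 and 21.5 CPM in CTRL and 24.9, 33.3 and 38.95 CPM in ODC, a log2 fold change of 0.54 ± 0.18 (SE; unadjusted p = 0.0180). BCL3, a nuclear partner of p50 and p52, read 55.4 and 54.9 CPM in CTRL and 64.2, 80.7 and 77.9 CPM in ODC, 0.43 ± 0.12 (SE; unadjusted p = 0.00662). Both were above both CTRL libraries in every ODC library, and they were the 2 members under an unadjusted p of 0.05. By that threshold 1.47% of all genes were higher and 0.87% lower. In the list 4 of 29 lay above both CTRL libraries and 1 below both, against 7.89% and 7.42% of all genes. RELB and BCL3 were picked by their p, so their separation is a description. With GC content adjusted for, neither of these 2 genes kept a p under 0.05 (unadjusted p = 0.0650 for RELB and 0.0527 for BCL3). RELA read 94.7 and 97.5 CPM in CTRL and 96.9, 103 and 110.0 CPM in ODC (unadjusted p = 0.284), NFKB1 read 77.2 and 86.2 CPM in CTRL and 74.3, 92.9 and 88.9 CPM in ODC (unadjusted p = 0.606) and IKBKB, a kinase that parthenolide is known to inhibit, read 46.1 and 41.4 CPM in CTRL and 40.2, 40.4 and 42.3 CPM in ODC (unadjusted p = 0.386). None of these 3 separated the groups.

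The integrated stress response, in which ATF4 raises amino acid transporters and synthetases, was not split as the lists above were. Of 31 members tested 29 had a higher and 2 a lower estimate (median 0.18), yet 1 had an unadjusted p under 0.05, and CTRL replicate 1 was the lowest library in 28 of 31. CHAC1, a glutathione-degrading enzyme, read 3.40 and 34.3 CPM in CTRL and 20.3, 44.6 and 36.2 CPM in ODC. ATF3 read 4.14 and 19.7 CPM in CTRL and 16.3, 16.5 and 23.3 CPM in ODC, STC2 read 30.1 and 110.3 CPM in CTRL and 68.5, 108 and 86.6 CPM in ODC and the amino acid transporter SLC7A5 read 791 and 1675 CPM in CTRL and 1091, 1928 and 1607 CPM in ODC. Here CTRL replicate 2 lay among the ODC libraries, except for STC2, where it lay slightly above them. ODC replicate 2 was the highest ODC library for CHAC1, STC2 and SLC7A5, and for ATF3 it was about level with ODC replicate 1. ODC replicate 1 was lower than the other ODC libraries in these 4 genes, and CTRL replicate 1 was lowest of all. Without CTRL replicate 1 the log2 fold change of CHAC1 was -0.02 and that of ATF3 -0.07, and the median of the list was -0.11. Without CTRL replicate 2, which left CTRL replicate 1 as the lone control, they were 3.32 and 2.19, with a list median of 0.61. CEBPB, the member with the smallest p, read 20.9 and 28.5 CPM in CTRL and 29.5, 32.3 and 32.2 CPM in ODC, a log2 fold change of 0.34 ± 0.15 (SE; unadjusted p = 0.0491), and its groups did not overlap. Among 24 chaperones and regulators of the endoplasmic reticulum 19 had a higher estimate (median 0.07), with SDF2L1 at 14.4 and 17.8 CPM in CTRL and 20.4, 18.7 and 21.5 CPM in ODC (unadjusted p = 0.0478) and HSPA5, the main chaperone there, at 1198 and 1224 CPM in CTRL and 1312, 1299 and 1398 CPM in ODC (unadjusted p = 0.117).

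**Figure D4:**
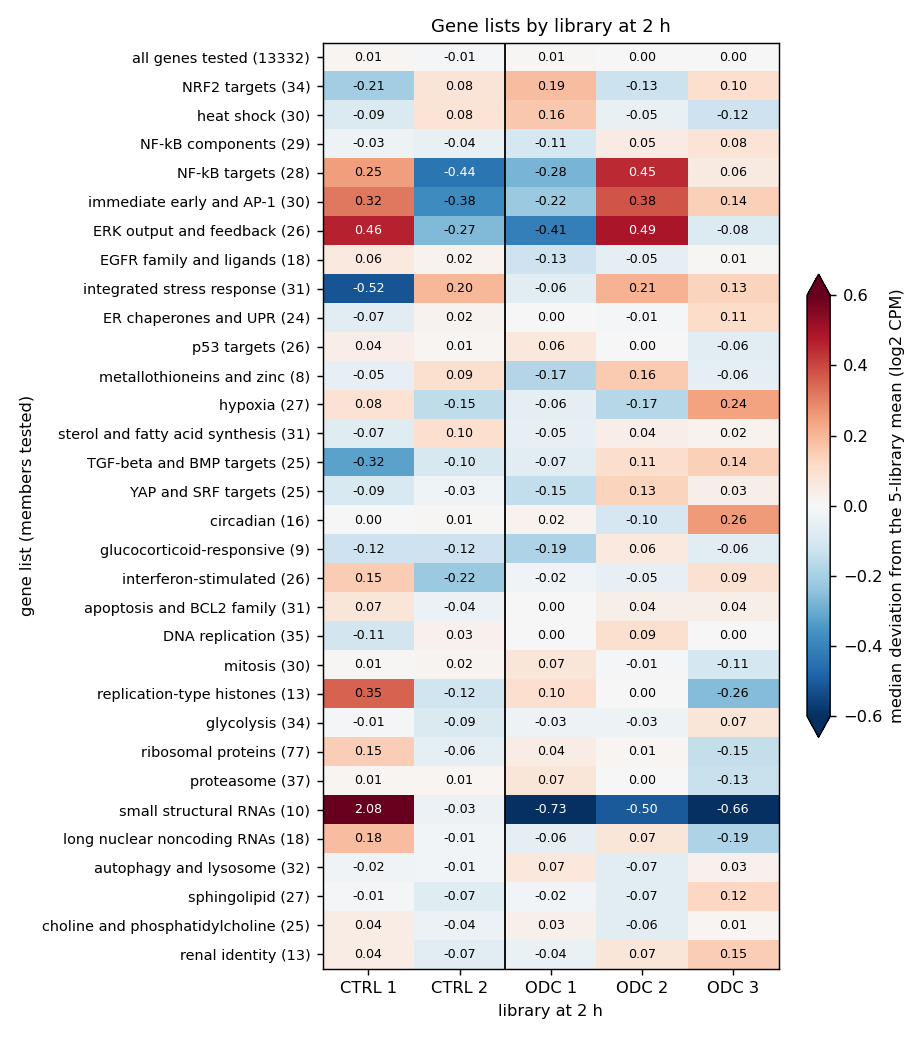
Gene lists with at least 8 tested members (rows, members in brackets) by library (columns); colour and number give the median over members of the log2 CPM minus the mean of the 5 libraries. ERK output, immediate early and NF-kB target lists were positive in CTRL 1 and ODC 2 and negative in CTRL 2 and ODC 1, NRF2 targets had the opposite signs in these 4 libraries, and the integrated stress response was low in CTRL 1.

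TGF-beta and BMP targets had the highest median of the lists, 0.30 over 25 members tested, with 18 higher and 7 lower. A total of 4 members had an unadjusted p under 0.05, all of them higher, against 1.47% of all genes, and 2 of the 4 stayed under it with GC content adjusted for. ID1, an inhibitor of differentiation that BMP signalling induces (chr20:31605283-31606515), read 131 and 144 CPM in CTRL and 186, 171 and 212 CPM in ODC, a log2 fold change of 0.46 ± 0.11 (SE; unadjusted p = 0.00331). All 3 ODC libraries were above both CTRL libraries, and the estimate was 0.40 without CTRL replicate 1, 0.55 without CTRL replicate 2 and 0.42 with GC content adjusted for. SMAD6, an inhibitor of the BMP pathway, read 7.66 and 14.8 CPM in CTRL and 15.6, 17.4 and 18.3 CPM in ODC, 0.60 ± 0.25 (log2, SE; unadjusted p = 0.0437), and the estimate was 0.21 without CTRL replicate 1 and 1.17 without CTRL replicate 2. TGFB1, the ligand, read 158 and 145 CPM in CTRL and 197, 175 and 189.6 CPM in ODC, 0.30 ± 0.09 (log2, SE; unadjusted p = 0.0116), and 0.14 with GC content adjusted for. PMEPA1, a feedback inhibitor of TGF-beta signalling, read 70.2 and 85.5 CPM in CTRL and 80.7, 132 and 144 CPM in ODC and overlapped, since ODC replicate 1 lay between the CTRL libraries. The abundant matrix gene FN1 read 6092 and 2779 CPM in CTRL and 5045, 2719 and 4092 CPM in ODC and followed no group.

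The remaining lists held few genes past the unadjusted threshold. Over all genes, 312 of the 13332 tested passed it, 1.47% higher and 0.87% lower. Small structural RNAs, described below, gave 7 of the list members that passed it. A gene could belong to more than 1 list, so no share of list members is given. Over all lists 31 members had an unadjusted p under 0.05, of which 11 stayed under it without CTRL replicate 1, 25 without CTRL replicate 2 and 18 with GC content adjusted for. Of 31 apoptosis genes tested, BAD, a pro-apoptotic member of the BCL2 family, read 16.99 and 18.3 CPM in CTRL and 27.2, 21.6 and 21.5 CPM in ODC (unadjusted p = 0.0204), and BMF, another such member, read 5.69 and 10.8 CPM in CTRL and 13.6, 13.9 and 11.6 CPM in ODC (unadjusted p = 0.0342). Among 27 genes of sphingolipid metabolism SPHK1, which makes sphingosine 1-phosphate, read 174 and 203 CPM in CTRL and 276, 232 and 219 CPM in ODC (unadjusted p = 0.0192), and the alkaline ceramidase ACER3 was lower, with 59.9 and 57.97 CPM in CTRL and 48.2, 46.3 and 49.5 CPM in ODC (unadjusted p = 0.0131). Each of these 4 genes had groups that did not overlap, as 7.89% and 7.42% of all genes did. Of 31 sterol and fatty acid genes MVD was higher, with 42.99 and 49.8 CPM in CTRL and 53.1, 57.98 and 68.5 CPM in ODC (unadjusted p = 0.0254), and IDI1 lower, with 31.9 and 36.8 CPM in CTRL and 28.9, 29.98 and 26.5 CPM in ODC (unadjusted p = 0.0483), although both act in the same mevalonate pathway. MAD2L1, of the mitotic checkpoint, read 80.6 and 78.2 CPM in CTRL and 67.1, 67.1 and 65.2 CPM in ODC (unadjusted p = 0.0154). CTSD, a lysosomal protease, read 963 and 970.5 CPM in CTRL and 1104, 1094 and 1346 CPM in ODC (unadjusted p = 0.0299).

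PRKAA1, a catalytic subunit of AMPK, read 137 and 115 CPM in CTRL and 106, 115 and 105 CPM in ODC (unadjusted p = 0.0779), and its activating kinase STK11 read 37.8 and 41.7 CPM in CTRL and 45.6, 46.5 and 45.8 CPM in ODC (unadjusted p = 0.0713). Of 26 p53 targets 11 had a higher estimate (median -0.06), and of 27 hypoxia genes 16 (median 0.02), with 0 of either under an unadjusted p of 0.05. DNA replication genes were higher in 25 of 35 (median 0.06), mitotic genes in 10 of 30 (median -0.04) and glycolytic genes in 24 of 34 (median 0.05). Ribosomal protein genes had a lower estimate in 61 of 77 (median -0.09), and CTRL replicate 1 was the highest library in 64 of the 77. Against CTRL replicate 2, 55 of the 77 were higher in ODC. Proteasome genes were higher in 16 of 37 (median -0.04), and lysosome and autophagy genes in 22 of 32 (median 0.06). Mitochondrially encoded genes were not analysed here.

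Of the 10 genes higher in ODC with the smallest p, ID1 and IRF7, of the interferon-stimulated list, were the ones that belonged to a list. MZT2B, a subunit of the complex that nucleates microtubules, read 31.9 and 31.7 CPM in CTRL and 46.7, 42.7 and 52.04 CPM in ODC, a log2 fold change of 0.57 ± 0.12 (SE; unadjusted p = 0.00135), and its near-identical copy MZT2A read 20.4 and 23.7 CPM in CTRL and 31.6, 28.97 and 32.05 CPM in ODC. CCDC85B read 15.5 and 17.2 CPM in CTRL and 26.7, 23.4 and 32.9 CPM in ODC, 0.76 ± 0.16 (log2, SE; unadjusted p = 0.00159). ALDH16A1 read 18.7 and 18.7 CPM in CTRL and 26.1, 25.9 and 29.8 CPM in ODC, C19orf60 read 14.4 and 12.6 CPM in CTRL and 22.01, 18.1 and 21.7 CPM in ODC and TPGS1 read 2.09 and 2.12 CPM in CTRL and 4.32, 3.59 and 3.97 CPM in ODC. TSPO, a cholesterol-binding protein of the outer mitochondrial membrane, read 76.7 and 80.7 CPM in CTRL and 101, 96.6 and 108 CPM in ODC, the zinc importer SLC39A4 read 20.2 and 23.5 CPM in CTRL and 29.6, 30.6 and 29.4 CPM in ODC and the interferon regulator IRF7 read 11.4 and 10.3 CPM in CTRL and 15.5, 16.9 and 14.8 CPM in ODC. In all 10 of these genes the ODC libraries lay above both CTRL libraries, with differences of 0.38 to 0.91 on the log2 scale. They were chosen by their p, so their separation is a description.

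These genes were rich in G and C. The median transcript GC content was 62.1% in the 10 genes and 62.9% in the 195 of 196 higher genes under an unadjusted p of 0.05 that had a value, against 47.4% in the 12973 tested genes with one. Of the 5 equal parts of the genes by GC content, the lowest had a median log2 fold change of -0.06 and 29.5% of genes higher, and the highest a median of 0.08 and 70.9% higher. In the highest part the median deviation of a library was -0.048 and -0.051 in CTRL and 0.031, 0.020 and 0.060 in ODC, so both groups kept together on this measure, unlike in HMOX1 and DUSP6. Of the 196 higher genes, 146 belonged to that highest part. With GC content adjusted for, chosen after the data were seen, 93 genes were higher and 92 lower at an unadjusted p under 0.05. The part of library preparation in this trend was not tested.

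Small structural RNAs made up most of the lowest estimates. These RNAs mostly lack a poly(A) tail, for which the library kit selects. Of 52 listed, 10 passed the filter and all 10 had a lower estimate, with a median log2 fold change of -2.99. Of these, 7 had an unadjusted p under 0.05 (0.87% of all genes were lower by that rule), and in 8 the 3 ODC libraries lay below both CTRL libraries (7.42% of all genes). The filter could be passed on the counts of the 2 CTRL libraries alone, as by RNU2-2P with 65 and 12 counts in CTRL and 3, 4 and 0 in ODC. These tallies are therefore a description and no support for a difference. Of all 52, including the 42 not tested, 21 and 12 had more than 3 counts in CTRL and 10, 12 and 11 in ODC. RMRP, the RNA of RNase MRP (chr9:35657754-35658017), read 12.1 and 1.59 CPM in CTRL and 0.413, 0.712 and 0.311 CPM in ODC, a log2 fold change of -3.82 ± 0.78 (SE; unadjusted p = 0.00115). RN7SL2, an RNA of the signal recognition particle, read 20.9 and 2.65 CPM in CTRL and 0.667, 1.55 and 1.04 CPM in ODC, and its near-identical copy RN7SL1 read 18.1 and 2.05 CPM in CTRL and 0.826, 1.13 and 1.21 CPM in ODC. RPPH1, the RNA of RNase P, read 5.92 and 0.670 CPM in CTRL and 0.127, 0.356 and 0.207 CPM in ODC, RN7SK, which holds back transcription elongation, read 19.8 and 2.15 CPM in CTRL and 1.37, 1.75 and 1.80 CPM in ODC, and RNU2-2P read 2.52 and 0.423 CPM in CTRL and 0.0953, 0.129 and 0 CPM in ODC. CTRL replicate 1 was several times above CTRL replicate 2 for each of these 6 RNAs, and CTRL replicate 2 was above all 3 ODC libraries. Summed over the list, the level was 96.8 and 16.02 CPM in CTRL and 8.67, 13.05 and 10.3 CPM in ODC (two-sided exact permutation test over 5 libraries, p = 0.2, the smallest it can give). Without CTRL replicate 1 the median of the 10 was -0.79, with RMRP at -1.72 and RN7SL2 at -1.28, and without CTRL replicate 2 it was -3.83.

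**Figure D5:**
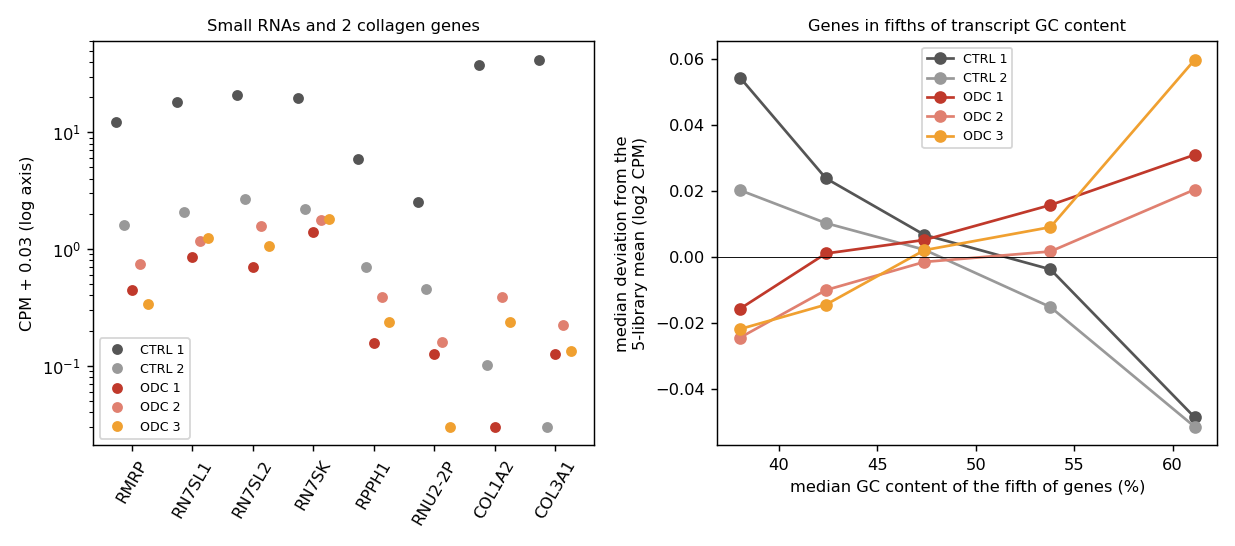
Left, level in CPM plus 0.03 (log axis) of 6 small structural RNAs and the collagen genes COL1A2 and COL3A1 in each library; right, median deviation from the mean of the 5 libraries (log2 CPM) against the median GC content of 5 equal parts of the tested genes. CTRL 1 lay highest for each of the 8 genes, with CTRL 2 next for the small RNAs and not for the collagens, and the CTRL lines fell with GC content where the ODC lines rose.

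Outside the lists, SPOCK2, a proteoglycan, read 0.735 and 0.353 CPM in CTRL and 0.0635, 0.0971 and 0.138 CPM in ODC, CDKL3, a kinase, read 1.70 and 1.76 CPM in CTRL and 0.604, 0.712 and 1.00 CPM in ODC and KLHL31 read 0.696 and 0.565 CPM in CTRL and 0.191, 0.291 and 0.138 CPM in ODC. SPOCK2 had 19 and 10 counts in CTRL and 2, 3 and 4 in ODC, and KLHL31 had 18 and 16 in CTRL and 6, 9 and 4 in ODC. Both reached the filter's minimum count of 10 in the CTRL libraries only, so their lower levels are a description. CDKL3 was lower against each CTRL library, with a log2 fold change of -1.17 ± 0.33 (SE; unadjusted p = 0.00705), of -1.19 without CTRL replicate 1 and of -1.13 without CTRL replicate 2. COL1A2, whose estimate of -6.62 ± 1.72 (log2, SE) was the lowest of all genes, rested on CTRL replicate 1 alone.

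The genes called at 24 h were read back in the 2 h libraries. At 24 h 21 of 12689 genes (0.165%) had an adjusted p under 0.05 with a fold change of at least 2, 19 higher and 2 lower, and all 21 were tested at 2 h. At 2 h 16 of the 19 had a higher estimate and both others a lower one, with a median of 0.17 against 1.56 at 24 h for the 19, and 0 had an unadjusted p under 0.05 or groups that did not overlap. FTL, the light chain of ferritin, read 391.96 and 569 CPM in CTRL and 568, 473 and 519 CPM in ODC at 2 h and 275, 265 and 327 CPM in CTRL and 1034, 1304 and 1235 CPM in ODC at 24 h. NQO1, a quinone reductase and NRF2 target, read 422 and 476 CPM in CTRL and 519.6, 401 and 524 CPM in ODC at 2 h and 195, 183 and 221 CPM in CTRL and 575, 604 and 565 CPM in ODC at 24 h. HMOX1, not called at 24 h, read 21.004, 16.7 and 40.6 CPM in CTRL and 98.3, 49.7 and 489.8 CPM in ODC there (adjusted p = 0.190), and EGR1 read 41.8, 21.2 and 18.9 CPM in CTRL and 6.93, 7.73 and 2.45 CPM in ODC (adjusted p = 0.107). For the 225 genes higher at 24 h by the unadjusted threshold and fold, 166 of 221 tested had a higher estimate at 2 h, with a median of 0.17. Over all genes tested at 2 h, 48.2% had a higher estimate. Of the 221, 33 lay above both CTRL libraries and 4 below both, against 7.89% and 7.42% of all genes. An unadjusted p under 0.05 was reached by 17, against 1.47% of all genes higher and 0.87% lower. Of the 73 lower at 24 h, 67 were tested, 51 had a lower estimate, 4 lay below both CTRL libraries and 1 above both. The 24 h effect exceeded the 2 h effect in 2 of 13333 genes (0.015%) by the test of the difference itself at an adjusted p under 0.05, and these were FTL and NQO1.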

How the data were processed

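RNA was sequenced from 5 libraries of Caki-1-SR cells taken at 2 h, 2 CTRL and 3 ODC. The 6 libraries at 24 h were fitted on their own in the same way, to find genes to read back at 2 h. They also entered the joint fit used for the difference between times. The authors aligned stranded single-end reads to hg38 with STAR (2.7.0f in the submitters' processing notes) and deposited raw read counts per gene symbol from HTSeq 0.9.1, without normalization; the study and the notes name different versions of STAR and edgeR. Groups came from the labels. The deposited counts were analysed with edgeR 4.0.16 in R 4.3.3. The study names edgeR and its quasi-likelihood F test; the filter and scaling were chosen here: filterByExpr (minimum count 10, minimum total 15), TMM scaling, a common, trended and gene-wise dispersion (common biological coefficient of variation 0.139) and the earlier quasi-likelihood F test, two-sided, with Benjamini-Hochberg adjustment over all genes tested. A call was an adjusted p under 0.05 with a fold change of at least 2; counts by unadjusted p are given beside it. The difference between times was tested as a contrast with the 11 libraries fitted jointly. Deviations used log2 of CPM plus 0.5. Gene positions and transcript GC content came from GENCODE, matched for 23161 of 26485 symbols directly and 1381 through older names. The 35 gene lists were written by hand. Genes named were the 10 higher and 10 lower with the smallest p, up to 5 members of each list with the smallest p, 15 genes of the drugs' targets and pathways, the genes called at 24 h and, chosen after their values were seen, up to 5 members of a list with the widest spread over the 5 libraries, neighbouring copies of named genes, markers, and JUN, SLC7A5, SPRY2, SRXN1 and SOX9. The members and lists were chosen with earlier results of these data known. The steps were tested on simulated data. Alternatives covered filters, scaling, tests (also DESeq2 1.42.0), a joint fit and libraries left out. Some genes that the rule named are not reported here. Figures were drawn with matplotlib 3.10.9.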

Additional observations from a re-analysis of the deposited data

Results flagged for a closer look

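The effect of ODC differed between the time points in 2 genes, by the contrast of the 24 h and 2 h effects in a joint fit of all 11 libraries (edgeR, adjusted p = 0.0174 for both). For FTL the log2 fold change at 24 h exceeded that at 2 h by 1.92 ± 0.22 (SE), and at 24 h all 3 ODC libraries were above all 3 CTRL libraries, while the groups overlapped at 2 h. For NQO1 the difference was 1.42 ± 0.17 (SE), with the same pattern. The call was lost for at least 1 of the genes when any 2 h library was left out. Time and the month in the labels coincide, so they cannot be told apart.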

How the results depend on the processing

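The count of 0 genes called by adjusted p was also 0 under the other filters, scalings and quasi-likelihood methods, the joint fit and the GC adjustment. The likelihood ratio test called 5 genes and DESeq2 1. Leaving out 1 library gave 0 to 40 genes, the 40 without CTRL replicate 2, and leaving out both libraries numbered 2 (chosen after the data were seen) gave 152, 25 higher and 127 lower. The count of 41 genes by unadjusted p became 241 with every gene of at least 1 count, 9 with over 1 CPM in 2 libraries, 13 with at least 10 counts in every library, 72 by the likelihood ratio test, 22 by DESeq2, 28 to 347 with 1 library left out and 412 with both numbered 2 left out. The count of 2 genes whose effect differed between times became 37 by the likelihood ratio test, 7 with every gene of at least 1 count, 0 to 1 with 1 library left out and 0 with both numbered 2 left out. In that last fit of the 2 h libraries 8 of the named genes turned their sign to a called decrease, EGR1 at a log2 fold change of -2.94, CSF2 at -3.58, IL6 at -1.63, CXCL1 at -1.97, CXCL8 at -1.82, CXCL2 at -1.66, JUN at -1.12 and IER3 at -1.10; it left out libraries for how such genes read in them and has 1 control, so these calls are no test. COL1A2 ran from -7.61 to 1.35 with 1 library left out. Of 31 list medians, RLE scaling and library size alone turned the sign of 0, leaving out CTRL replicate 1 or 2 that of 7 or 11, and ODC replicate 1, 2 or 3 that of 6, 4 or 7. The cause of these changes was not tested. No paired analysis was possible because the labels number the libraries across groups and so share no number between them; the replicate numbers used here follow the order of deposit and only name libraries.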
